A study of Arabidopsis thaliana with 24 samples.

Results

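The comparison set leaves of the tbf1 mutant against leaves of wild-type Columbia-0 plants, both 2 h after infiltration of 10 µM elf18. It was chosen by group label and used 6 of the 24 arrays of the series, 3 of tbf1 and 3 of the wild type, and the difference was tested at all 22746 probe sets of Arabidopsis thaliana that are not array controls. The other 18 arrays held the same 2 genotypes after infiltration of water for 2 h (the mock treatment of elf18), after a spray of 1 mM salicylic acid (SA) for 6 h and after a spray of water for 6 h, again with 3 arrays a group. All plants were grown on soil for 3 weeks at 22 °C with 16 h of light and 8 h of dark, and total RNA came from mature leaf, a mixture of cell types. The labels name neither the tbf1 allele nor the number of plants behind an array, and they call the 3 arrays of a group biological replicates.

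elf18 is a peptide from the amino end of the bacterial elongation factor EF-Tu. Arabidopsis detects it at the cell surface through EFR, a leucine-rich repeat receptor kinase, and the signal runs through kinases such as BIK1 to calcium, reactive oxygen and a wave of transcription in which WRKY factors take part. TBF1 is a transcription factor related to heat shock factors that binds a short promoter element called TL1 and has been described as a switch between growth and defence, acting on genes of the endoplasmic reticulum (ER) secretory route among others. The comparison asks which transcripts differ when this factor is mutated in leaves that have just met elf18.

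Values were log2 expression, each probe set deposited with a median of 0 over the 24 arrays, so a value of 0 is the probe set's median and not an absence of RNA, and levels cannot be compared between genes or used to check that the tissue is leaf. A positive log2 difference means higher in tbf1. A probe set was called where limma's moderated test gave an adjusted p below 0.05 (Benjamini-Hochberg over all 22746 probe sets). No probe set carried the name TBF1, HSFB1 or HSF4 in the annotation used, so the mutated gene itself could not be checked by name. In bulk leaf, fewer cells of a type and less RNA per cell cannot be told apart.

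The arrays of the genotypes also differed in their control probe sets. An index of RNA integrity, the signal of the 5′ minus the 3′ probe sets of 3 control genes, averaged -0.34 ± 0.06 in tbf1 and -0.98 ± 0.16 in the wild type after elf18 (SD, n = 3 each), a difference of 0.64 with no overlap (exact permutation test, two-sided, p = 0.1, the smallest that 3 against 3 arrays can give). After water infiltration the index differed the same way, by 0.54, whereas after both sprays it was lower in tbf1, at -1.53 in tbf1 against 0.48 in the wild type after SA and at -1.67 in tbf1 against 0.78 in the wild type after water spray. Spiked control transcripts, which are added and do not come from the leaf, averaged -0.29 in tbf1 and 0.95 in the wild type after elf18. Their values again had no overlap (exact permutation p = 0.1). With the index as a covariate the calls after elf18 numbered 4197 (2361 higher, 1836 lower), and over 13355 genes the 2258 higher and 2229 lower became 1120 and 1051. That fit kept 1 mean per group, so the index slope came only from the spread within groups (SD 0.004 to 0.29). The genotype gaps in the index were wider, so its adjusted differences are extrapolations. Both the differences and their precision can change in that fit, and the part of RNA integrity was not tested. Counts under that fit, or after quantile normalization of the arrays, are given beside many of the gene groups. After quantile normalization 1913 of the 13355 genes were called higher and 1279 lower. Counts from either fit are to be read against that fit's own totals. The shares over all genes given below come from the fit without either step.

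**Figure D1:**
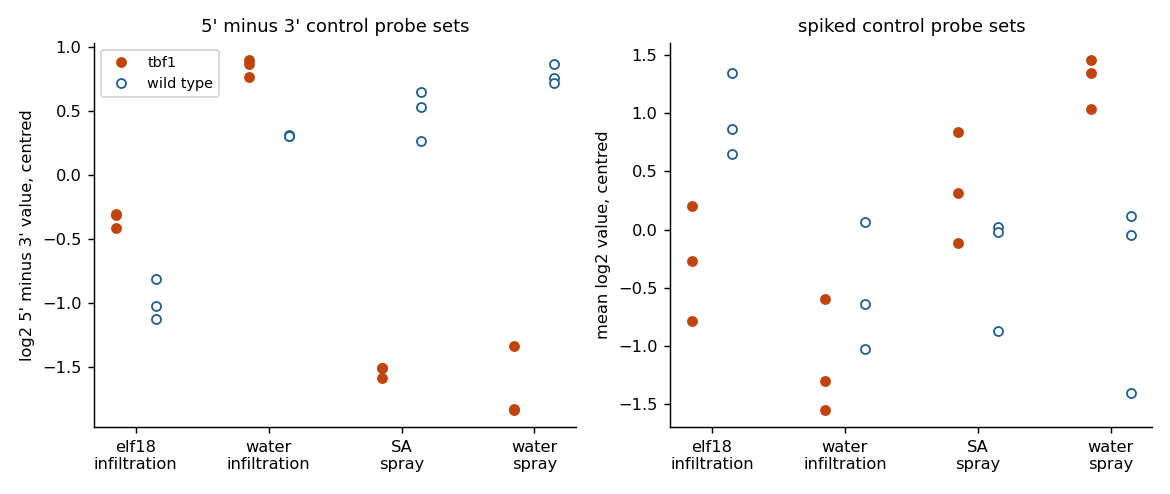
Control values of all 24 arrays, by treatment (x axis), for tbf1 (filled) and the wild type (open), 1 point per array: the 5′ minus 3′ index in log2 units on the left and the mean of the spiked transcripts, a centred log2 value, on the right. After elf18 the 3 tbf1 arrays lie above the 3 wild-type arrays in the index, by 0.64 on average, and below them in the spiked transcripts.

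After elf18, 8383 of 22746 probe sets were called (36.9%), of which 4721 were higher in tbf1 (20.8%) and 3662 lower (16.1%). Most differences were small: 930 (4.09%) were called and at least 2-fold, 554 of them higher (2.44%) and 376 lower (1.65%), and the median difference of all probe sets was -0.05. The 3 tbf1 and 3 wild-type values did not overlap at 10167 probe sets (44.7%). Arrays of one genotype correlated with each other more closely (Pearson's r across probe sets 0.87 to 0.91 within tbf1 and 0.86 to 0.89 within the wild type) than with the other genotype (0.59 to 0.68). The mean SD of a probe set over 3 arrays was 0.13 in tbf1 and 0.21 in the wild type.

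By size, the largest difference of all fell on probe set 246214_at, which has no gene name in the annotation used. Its values after elf18 were 0.22, -0.07 and 0.07 in tbf1 and 5.16, 4.94 and 5.07 in the wild type, a log2 difference of -4.98 ± 0.22 (SE; 31.6-fold, adjusted p = 1.09e-13). The 3 tbf1 arrays sat near the probe set's median and the 3 wild-type arrays far above it. Unnamed probe sets may include that of the mutated gene, and whether this one measures TBF1 itself was not tested. After water infiltration the same probe set had -0.81, -0.88 and -0.84 in tbf1 and 3.24, 3.08 and 3.37 in the wild type, and the difference after water spray was -0.26. A second unnamed probe set, 260116_at, had -0.93, -0.89 and -0.55 in tbf1 and 2.204, 2.12 and 2.31 in the wild type after elf18 (-2.999, adjusted p = 5.76e-12), again with no overlap. Of unnamed probe sets that were higher in tbf1, 252441_at stood at -0.35, -0.58 and -0.71 in tbf1 and -3.20, -3.24 and -3.25 in the wild type (2.68) and 249895_at at 2.19, 2.13 and 2.28 in tbf1 and 0.23, -0.06 and 0.55 in the wild type (1.96).

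Among the 14 largest falls at probe sets with 1 gene name, all 14 carried only a locus tag, so no function is given. AT1G76960 had -2.88, -2.999 and -2.79 in tbf1 and -0.41, -0.24 and -0.15 in the wild type, a difference of -2.63 ± 0.11 (SE; 6.17-fold, adjusted p = 4.12e-14). All 3 tbf1 arrays were far below the wild type, and they were so after water infiltration too (-2.65), but in the sprayed leaves the gene was higher in tbf1, by 1.02 after SA and 1.099 after water. AT5G05300 had -0.20, -0.37 and -0.05 in tbf1 and 1.92, 2.13 and 2.12 in the wild type (-2.27) and differed by -2.25 after water infiltration. AT2G18220 differed by -2.26 after elf18 and AT5G17910 by -2.15, against -0.45 and -0.05 after water infiltration. The other 10 falls, from AT4G28460 to AT2G17660, lay between -2.11 and -1.94. Of the 14, 12 were also called lower after water infiltration and 8 were called higher in tbf1 after water spray.

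The 24 largest falls and the 24 largest rises of genes with a symbol were picked after their values were seen. They came from called probe sets whose genotypes do not overlap after elf18, so the lack of overlap in them is no result. The largest of these falls was MMP, a matrix metalloproteinase that cuts proteins outside the cell, at 0.38, 0.45 and 0.60 in tbf1 and 2.26, 2.45 and 1.89 in the wild type, a difference of -1.72 ± 0.21 (SE; 3.31-fold, adjusted p = 5.44e-07). After water infiltration the genotypes differed by -0.28 in MMP (adjusted p = 0.441). CML37, a calmodulin-like calcium sensor, had 0.34, 0.0026 and 0.07 in tbf1 and 1.61, 1.62 and 2.03 in the wild type (-1.61, adjusted p = 2.6e-09), and it was lower after water infiltration as well (-1.83). NET1D, a protein of the actin-binding Networked family, had -0.34, -0.02 and -0.07 in tbf1 and 1.45, 1.44 and 1.49 in the wild type (-1.60), with no difference called after water infiltration (0.01).

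Among the falls named here were 5 genes with roles in chromatin or RNA processing, while PRH75, YAO and MAC3B, which also act on RNA, were among the rises. CHR23, a SWI2/SNF2 chromatin-remodelling ATPase, had -0.82, -0.26 and -0.52 in tbf1 and 0.95, 0.95 and 0.62 in the wild type (-1.37, adjusted p = 6e-08). SWI3A, a subunit of SWI/SNF remodelling complexes, differed by -1.07, and DME, a DNA glycosylase that removes methylated cytosine, by -1.18. 3xHMG-box1, a chromatin protein with several HMG boxes, had 0.30, 0.36 and 0.31 in tbf1 and 1.62, 1.81 and 1.72 in the wild type (-1.39), and TGH, a G-patch protein of RNA processing, differed by -1.13. Of these 5 genes, DME alone was called lower after water infiltration (-0.58). Transcription factors among the falls were WRKY22 (-1.31), the trihelix factor GT2 (-1.33) and BIM1 (-1.05), a basic helix-loop-helix partner of brassinosteroid factors. GT2 had 0.09, -0.06 and 0.03 in tbf1 and 1.18, 1.49 and 1.37 in the wild type, so each wild-type value was above 1 and each tbf1 value near 0.

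Other falls were in genes of protein turnover, membrane traffic and redox chemistry. UBP23, a ubiquitin-specific protease, had 0.28, 0.24 and 0.29 in tbf1 and 1.70, 1.67 and 1.94 in the wild type (-1.50, adjusted p = 9.49e-08). TPLATE, a subunit of an adaptor complex of clathrin-mediated endocytosis, had 0.01, -0.19 and -0.34 in tbf1 and 1.17, 1.24 and 1.32 in the wild type (-1.41). Neither gene was called after water infiltration (-0.23 and -0.26). MSRB9, a methionine sulfoxide reductase, had 1.62, 1.71 and 1.63 in tbf1 and 2.82, 2.85 and 2.76 in the wild type (-1.16), and SUFE2, which activates sulfur transfer for iron-sulfur clusters, differed by -1.24. B120, a lectin-domain receptor-like kinase, had 2.12, 2.14 and 1.98 in tbf1 and 3.00, 3.23 and 3.21 in the wild type (-1.07), and both genotypes were well above the gene's median. IQD32 (listed as iqd32), an IQ-domain protein of the calmodulin-binding type, differed by -1.27, and NET4B by -1.13. The NET4B call was lost in the fit that included the index (adjusted p = 0.0626).

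The largest named rise was ARA12, a subtilisin-like serine protease secreted into the cell wall, at 0.50, 0.30 and 0.02 in tbf1 and -1.27, -1.70 and -1.50 in the wild type, a difference of 1.76 ± 0.15 (SE; 3.39-fold, adjusted p = 3.1e-09). ARA12 differed by 1.79 after water infiltration, and in the other direction after water spray (-2.45). BGLU44, a beta-glucosidase, had -1.01, -1.31 and -1.25 in tbf1 and -2.61, -3.06 and -2.97 in the wild type (1.69), and was lower in tbf1 after water infiltration (-0.69). PRH75, a DEAD-box RNA helicase, had 0.23, -0.05 and -0.05 in tbf1 and -1.40, -1.56 and -1.97 in the wild type (1.68). QQS, a gene found only in Arabidopsis that affects how carbon goes into starch, had 0.76, 0.60 and 1.04 in tbf1 and -0.75, -1.03 and -0.72 in the wild type (1.63, adjusted p = 2.27e-10). Of the 14 largest rises at probe sets with 1 gene name, 9 carried only a locus tag, led by AT1G12800 at -0.30, -0.56 and -0.53 in tbf1 and -2.60, -1.49 and -2.38 in the wild type (1.69), 12 were also called higher after water infiltration and 13 were called lower after water spray. For these 14 rises, as for the 14 largest falls, no overlap between the genotypes after elf18 was a condition of the choice.

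Further rises included genes of carbon metabolism and of plastids. ACLB-1, a subunit of ATP-citrate lyase, which makes cytosolic acetyl-CoA, had -0.61, -0.51 and -0.53 in tbf1 and -1.90, -2.20 and -1.93 in the wild type (1.46, adjusted p = 1.98e-09). PWD, a dikinase that phosphorylates starch before it is broken down, had -0.29, -0.59 and -0.46 in tbf1 and -1.75, -2.27 and -1.49 in the wild type (1.39), and LYC, the lycopene beta-cyclase of carotenoid synthesis, differed by 1.34. FTSZ2-1 and FTSZ2-2, tubulin-like proteins of the chloroplast division ring, were higher by 1.27 and 1.21. The stromal processing peptidase, which trims imported chloroplast proteins, was higher by 1.17, and MPPBETA, a subunit of the matching mitochondrial peptidase, by 1.21. The calls of FTSZ2-1 (0.78, adjusted p = 0.0773) and MPPBETA (0.51, adjusted p = 0.131) were lost when the index was included. In these 7 genes all 6 arrays were below the gene's median after elf18, the wild-type arrays further than the tbf1 arrays. PDC2, a pyruvate decarboxylase, had 0.72, 0.66 and 0.60 in tbf1 and -0.48, -0.58 and -0.73 in the wild type (1.25).

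Other named rises fell in hormone, secretory and growth-related genes. JMT, which methylates jasmonic acid, had 2.17, 2.02 and 2.01 in tbf1 and -0.01, 1.496 and 0.27 in the wild type (1.48, adjusted p = 4.94e-05), with a wide spread in the wild type. COR27, a cold-regulated gene tied to the circadian clock, had 1.93, 1.52 and 2.06 in tbf1 and -0.04, 0.56 and 0.64 in the wild type (1.45) and was also higher after water infiltration (1.97). GI (GIGANTEA), the only clock gene of the lists with a named probe set, had -0.38, -0.18 and -0.08 in tbf1 and -1.27, -1.61 and -1.09 in the wild type (1.11, adjusted p = 8.79e-06). A signal peptide peptidase of the ER membrane (SPP, AT2G03120) had 0.62, 0.45 and 0.61 in tbf1 and -0.87, -0.68 and -0.84 in the wild type (1.35). MAC3B, a subunit of the MOS4-associated spliceosome complex that also acts in immunity, differed by 1.16, and YAO, a nucleolar protein of ribosomal RNA processing, by 1.17. GH9C2, an endoglucanase, was higher by 1.41.

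**Figure D2:**
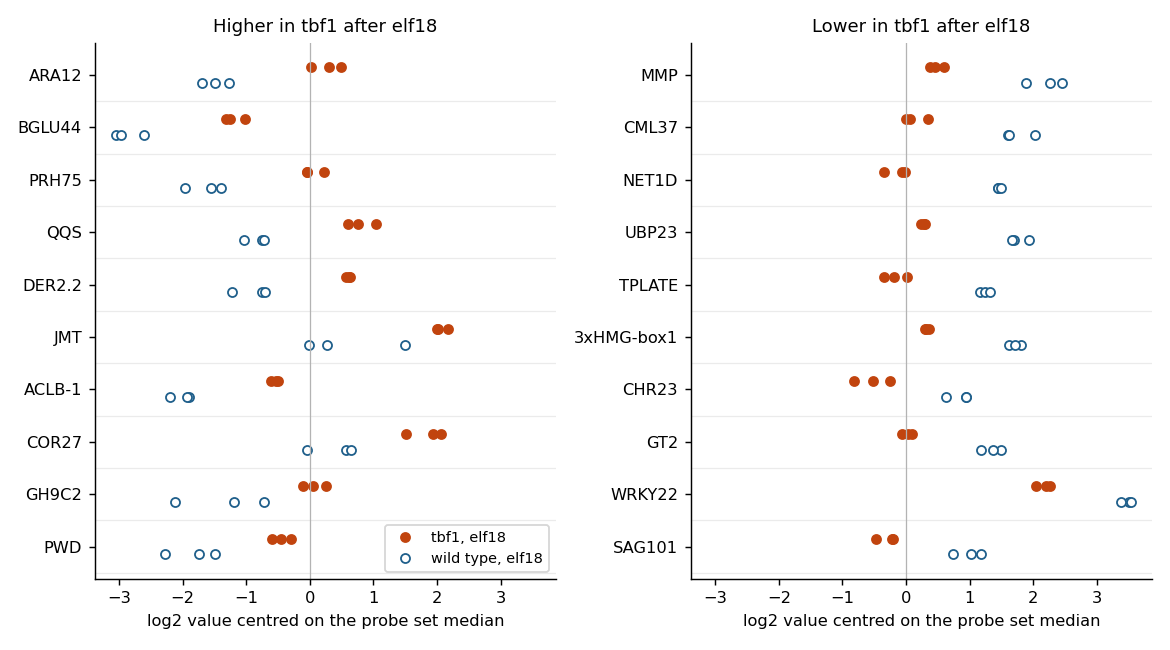
Centred log2 values (x axis) of 20 named genes in the 3 tbf1 arrays (filled) and the 3 wild-type arrays (open) after elf18, 1 point per array, with genes higher in tbf1 on the left and genes lower in tbf1 on the right. The 20 were picked among genes with large differences and no overlap, so the gap between genotypes was a condition of the choice. The spread within a genotype is widest in wild-type JMT and GH9C2.

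Genes of elf18 perception and of the first signalling steps were all called, in both directions. Named probe sets existed for 6 of them (2 were called higher and 4 lower, median -0.47), against 33.6% called over all 13355 genes (16.9% higher and 16.7% lower) and a median of -0.08. EFR, the elf18 receptor, had 1.26, 1.05 and 0.67 in tbf1 and -0.01, 0.69 and 0.38 in the wild type, a difference of 0.64 ± 0.17 (SE; adjusted p = 0.0039), and the genotypes overlapped at 1 array each. BIK1, the kinase below the receptor, had 1.17, 1.24 and 1.15 in tbf1 and 1.00, 0.91 and 0.57 in the wild type (0.36), with no overlap, but the difference was -0.02 with the index as a covariate and 0.23 (not called) without wild-type array 3. EFR differed by 0.69 after water infiltration.

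PUB22, PUB23 and PUB24, U-box ubiquitin ligases that damp pattern-triggered signalling, were lower in tbf1. PUB22 had 2.59, 2.67 and 2.68 in tbf1 and 3.06, 3.34 and 3.40 in the wild type (-0.62, adjusted p = 0.00213), PUB23 had 2.32, 2.24 and 2.05 in tbf1 and 2.90, 2.91 and 2.88 in the wild type (-0.69), and PUB24 had 0.13, -0.04 and 0.11 in tbf1 and 0.55, 0.70 and 0.42 in the wild type (-0.49). PUB22 and PUB23 were far above their medians in both genotypes, and no tbf1 value reached a wild-type value in any of the 3. The sixth member, AT5G18610, differed by -0.45, or by -0.30 (not called) without wild-type array 2. A fit that included the index called 0 of the 6 higher and 2 lower.

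Of the pattern-induced marker genes in the list, 3 had a named probe set, and all 3 were called lower in tbf1. Among all genes 16.7% were called lower. WRKY22, a WRKY factor below the receptor's kinase cascade, had 2.26, 2.04 and 2.21 in tbf1 and 3.50, 3.55 and 3.39 in the wild type, a difference of -1.31 ± 0.14 (SE; 2.48-fold, adjusted p = 1.37e-07). STZ, a zinc finger repressor of stress responses, had 0.67, 0.57 and 0.52 in tbf1 and 1.29, 1.22 and 1.07 in the wild type (-0.61), and WRKY53 had 0.0032, -0.20 and -0.09 in tbf1 and 0.31, 0.21 and 0.33 in the wild type (-0.38). The WRKY53 call was lost, at values from -0.33 to -0.37, on leaving out tbf1 array 2 or wild-type array 1 or 3. After water infiltration, where 9.34% of genes were called higher and 7.62% lower, all 3 markers were lower in tbf1 too (-1.16, -1.01 and -0.59), and the difference between treatments was called for none of them (over all genes 7.25% were called more positive after elf18 and 5.11% more negative). Both the fit that included the index and the one after quantile normalization called 1 of the 3. Of 7 WRKY genes with a named probe set, WRKY6 was also lower (-0.73), while WRKY47 (0.64) and WRKY20 (0.54) were higher.

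Of 4 genes of the salicylic acid pathway with a named probe set, 2 were lower in tbf1 and 2 were not called. Among all genes 16.7% were called lower. SAG101, a lipase-like partner of the immune regulator EDS1, had -0.22, -0.47 and -0.20 in tbf1 and 1.03, 0.74 and 1.19 in the wild type, a difference of -1.28 ± 0.17 (SE; adjusted p = 1.61e-06). GRX480, a glutaredoxin that binds TGA factors and links salicylic acid with jasmonate signalling, had -0.35, -0.37 and -0.21 in tbf1 and 0.94, 0.92 and 0.86 in the wild type (-1.22, adjusted p = 4.13e-09). The GRX480 difference was larger after water infiltration (-1.99; difference between treatments 0.77 ± 0.15, adjusted p = 0.000679), and the gene was higher in tbf1 after both sprays (1.89 after SA and 2.06 after water). UGT76B1, a glucosyltransferase that acts on salicylic acid, differed by 0.31 and UGT74F1, which forms its glucosides, by -0.20. The UGT76B1 value depended on the fit and was -1.38 (adjusted p = 0.0312) once the index entered the fit, an extrapolation beyond the index spread within groups.

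Jasmonate genes went both ways. Of 12 genes named in the annotation, 2 were called higher and 3 lower (median -0.16), against 1 in each direction once the index was in the fit. Among all genes the shares were 16.9% higher and 16.7% lower. The plant defensin PDF1.2, a marker of jasmonate and ethylene defence, had 2.098, 1.92 and 2.11 in tbf1 and 2.58, 2.53 and 2.61 in the wild type (-0.53, adjusted p = 0.00309), and PDF1.2b had 1.62, 1.61 and 1.54 in tbf1 and 2.23, 2.36 and 2.41 in the wild type (-0.74). The PDF1.2 difference after elf18 was -0.064 after quantile normalization (adjusted p = 0.806) and -0.54 when the index was included (adjusted p = 0.112), so neither fit called it. MYC3, a jasmonate transcription factor, differed by -0.59, or by -0.40 (not called) without wild-type array 2. JMT, described above, was the largest rise. In an overlapping list of 8 jasmonate and ethylene defence genes 1 was higher, EIN3, the central ethylene factor (0.66), though 1 array of each genotype overlapped.

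Genes of the ER route, the one TBF1 has been linked to, were covered by 2 overlapping lists, and the longer was called at a share near that of all genes, of which 16.9% were higher and 16.7% lower. Of 16 genes of ER quality control and the unfolded protein response, 3 were called higher and 3 lower, with a median of 0.12. Including the index gave 1 higher and 4 lower (median -0.07). Of the 9 genes of the shorter list, for ER folding, translocation and quality control, 0 were called higher and 3 lower (median 0.06), against 0 higher and 4 lower and a median of -0.68 once the index was in the fit, so the sign of the median depended on the fit in both lists. The derlins, membrane proteins that export misfolded proteins for degradation, rose: DER2.2 had 0.64, 0.61 and 0.56 in tbf1 and -1.23, -0.75 and -0.71 in the wild type (1.504, adjusted p = 2.9e-08) and DER2.1 had 0.65, 0.81 and 0.77 in tbf1 and -0.19, -0.29 and -0.47 in the wild type (1.06). UBC32, a ubiquitin-conjugating enzyme of the same degradation route, differed by 0.32. BZIP60, the leucine zipper factor that switches unfolded-protein genes on, fell: it had 0.07, 0.03 and -0.0017 in tbf1 and 0.74, 0.95 and 0.82 in the wild type, a difference of -0.81 ± 0.09 (SE; adjusted p = 3.7e-07), and -1.002 after water infiltration. ATERDJ2A, a J-protein of the translocation channel, differed by -0.61, and the remaining fall was the gene listed as ATCRT1 (-0.52).

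Of 13 heat shock proteins and co-chaperones, 3 were called higher and 4 lower, against 2 higher and 2 lower when the index was included. Over all genes 16.9% were called higher and 16.7% lower. The Fes1-type co-chaperones of Hsp70, Fes1C and Fes1B, were higher by 0.87 and 0.79, and Hop2 by 0.40. Lower were the small heat shock-like chaperone BOB1 (-0.74), Hsp70-2 (-0.71), Hop3 (-0.70) and HSA32 (-0.41), a protein of thermotolerance. Hsp70-2 had 0.50, 0.37 and 0.49 in tbf1 and 1.17, 1.15 and 1.16 in the wild type, with the wild-type arrays within 0.02 of each other. FKBP65 (ROF2, AT5G48570), a heat-inducible peptidyl-prolyl isomerase that is not in the list, had 1.19, 0.86 and 0.74 in tbf1 and 2.52, 2.79 and 2.84 in the wild type (-1.78, adjusted p = 9.3e-08) and was also lower under the other 3 treatments.

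Most nuclear genes of chlorophyll synthesis and photosynthesis were higher in tbf1, but not under every scaling of the arrays. Of 35 with a named probe set, 24 were called higher and 2 lower, against 16.9% and 16.7% of all genes. The list median was 0.43. PORB, a protochlorophyllide reductase, had -0.83, -0.83 and -0.87 in tbf1 and -1.80, -1.90 and -2.20 in the wild type (1.13, adjusted p = 9.58e-08), and CHLM, a methyltransferase of chlorophyll synthesis, had -0.88, -0.86 and -0.94 in tbf1 and -1.85, -1.79 and -2.09 in the wild type (1.02). LIL3:2, a light-harvesting-like protein, differed by 0.89, the thylakoid anchor TROL by 0.87 and the antenna protein LHCB4.3 by 0.75. HEMA2 and HEMA3, glutamyl-tRNA reductases at the start of the same route, were lower (-0.69 and -0.32). The list median was 0.08 after water infiltration, and a fit that included the index called 12 higher and 1 lower. After quantile normalization 9 were called higher and 7 lower (median 0.08), beside 1913 higher and 1279 lower of all 13355 genes.

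Transcripts of the organelle genomes were called lower more often than higher in the lists for the plastid ribosome and RNA polymerase, the plastid photosystems and the mitochondrion, and in both directions in the other plastid lists. These counts stand beside 16.9% of all genes called higher and 16.7% lower. Of 19 plastid-encoded genes for ribosomal proteins and the plastid RNA polymerase, 2 were called higher and 10 lower (median -0.47). The ribosomal protein gene rps16 had -0.20, 0.20 and -0.08 in tbf1 and 0.96, 1.18 and 1.08 in the wild type (-1.10, adjusted p = 1.89e-06), rps14 had 0.22, 0.13 and -0.002 in tbf1 and 1.18, 0.82 and 1.02 in the wild type (-0.89), and rpl36 differed by -0.88. Only rps2 (0.91) and rpl16 (0.34) were called higher. Of 22 plastid-encoded photosystem genes, 3 were called higher and 9 lower: psbT (-1.32), psbN (-0.99), psaC (-0.63) and psbB (-0.63) were among the lower, and ycf4 (0.87), psaB (0.70) and psbH (0.32) were the higher. ycf4 had 0.09, 0.38 and 0.21 in tbf1 and -0.65, -0.52 and -0.76 in the wild type, and psbN had 0.12, 0.40 and 0.43 in tbf1 and 1.12, 1.36 and 1.43 in the wild type. The photosystem counts were 1 higher and 2 lower in the fit that included the index, and 3 higher and 4 lower after quantile normalization. The psbT call was lost when the index was included (adjusted p = 0.224). Of 13 plastid-encoded genes for electron transport, ATP synthase and Rubisco, 4 were called higher and 5 lower (median -0.12), against 4 higher and 2 lower after quantile normalization (median 0.11) and 1 higher and 1 lower when the index was included. Of 10 plastid-encoded genes of the NDH complex, 2 were called higher and 3 lower, against 2 higher and 1 lower after quantile normalization and 1 higher and 0 lower when the index was included.

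Of 15 mitochondrial-encoded genes 0 were called higher and 8 lower (median -0.48), against 16.9% and 16.7% of all genes. The cytochrome oxidase genes cox1 and cox2 differed by -0.72 and -0.91, the NADH dehydrogenase gene nad4 by -0.86 and ccb452, of cytochrome c maturation, by -0.92. cox1 had 0.03, 0.13 and -0.03 in tbf1 and 0.75, 0.53 and 1.02 in the wild type and nad4 had -0.03, 0.21 and 0.30 in tbf1 and 0.95, 1.16 and 0.93 in the wild type, so wild-type leaves were above the median after elf18 and tbf1 leaves at it. After quantile normalization the plastid ribosome list had 1 higher and 11 lower and the mitochondrial list 0 higher and 6 lower. With the index as a covariate the ribosome list had 1 higher and 6 lower and the mitochondrial list 0 higher and 4 lower. The part of RNA integrity in these groups, and the reason calls were lost in the fit with the index, were not tested.

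Calcium sensors, U-box ligases and autophagy genes were among the other groups with more falls than rises. Of all genes, 16.9% were called higher and 16.7% lower. Of 7 calmodulin-like genes 4 were lower and 0 higher (median -0.39): CML37, CML23 (-1.07), CML38 (-0.81) and CML41 (-0.39). CML41 kept its call only when wild-type array 3 was the one left out (-0.60), and was at -0.16 without wild-type array 1. CML38 had 0.65, 0.57 and 0.52 in tbf1 and 1.51, 1.17 and 1.48 in the wild type, and it differed more after water infiltration (-1.80; adjusted p = 0.000425 for the difference between treatments). The count stayed at 4 lower and 0 higher with the index as a covariate and after quantile normalization. Of 9 U-box ligases 5 were lower and 0 higher, and 3 were lower in either of those fits.

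Of 10 autophagy genes 2 were called higher and 5 lower, against 16.9% and 16.7% of all genes. ATG8 proteins coat the forming autophagosome, and members of the family differed in direction: ATG8D had 0.13, 0.17 and 0.19 in tbf1 and 0.93, 0.88 and 0.96 in the wild type (-0.76), ATG8E had 0.53, 0.54 and 0.76 in tbf1 and 1.07, 1.46 and 1.45 in the wild type (-0.72), and ATG8F had -0.25, -0.27 and -0.31 in tbf1 and -0.79, -0.84 and -0.77 in the wild type (0.53). ATG3, the enzyme that joins ATG8 to lipid, differed by 0.63, but by -0.04 (not called) with the index as a covariate. That covariate left 1 higher and 1 lower of the 10. Of 11 late embryogenesis and abscisic acid genes, 2 were called higher and 5 lower, LEA4-5 (-0.68) and DI21 (-0.67) among the lower, against 0 higher and 2 lower with the covariate.

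In the lists for sugar transporters, ESCRT and exocyst genes and tubulins, every called gene was higher in tbf1. Of 17 SWEET and tonoplast sugar transporters, 5 were called higher and 0 lower, against 16.9% and 16.7% of all genes. The median of the list was only 0.09. SWEET11, a sucrose exporter of leaf veins, had -0.19, -0.11 and -0.24 in tbf1 and -1.30, -1.12 and -1.15 in the wild type (1.01, adjusted p = 9.2e-08). SWEET4 differed by 0.68, SWEET2 by 0.42, and the tonoplast transporters TMT2 and TMT1 by 0.64 and 0.49. TMT1 was at -0.01 after quantile normalization, and the fit that included the index called 1 of the 17.

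Of 19 genes of the ESCRT and exocyst complexes, which sort and tether vesicles, 6 were called higher and 0 lower, the largest being the exocyst subunits SEC10 (0.86, and 0.57 without wild-type array 2), EXO84B (0.74) and SEC5A (0.59). The shares over all genes were 16.9% higher and 16.7% lower. With the index as a covariate 1 of the 19 was called, and the list median was -0.11 against 0.08. Of 5 tubulin genes, 3 were called higher and 0 lower: TUB5 had -1.30, -1.60 and -1.40 in tbf1 and -2.16, -2.33 and -2.48 in the wild type (0.89, adjusted p = 3.71e-07), TUA6 differed by 0.86 and TUB9 by 0.42. Both the fit with the index and the one after quantile normalization called 1 of the 5.

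Among 22 glutathione transferases, glutaredoxins and thioredoxins, 7 were called higher and 1 lower, against 16.9% and 16.7% of all genes. The rises were led by the thioredoxin THX (0.91), the mitochondrial thioredoxin TO1 (0.84) and TRXF2 (0.76), which switches enzymes of the Calvin cycle on in light. TRXF2 had -0.64, -0.64 and -0.49 in tbf1 and -1.42, -1.35 and -1.27 in the wild type. The fall was TY1 (-0.59), another plastid thioredoxin. Adding the index to the fit left 4 higher and 0 lower.

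Cell wall and glycoside genes were mixed, beside 16.9% of all genes called higher and 16.7% lower. Of 28 expansins and xyloglucan enzymes, 3 were called higher and 5 lower, against 3 higher and 1 lower when the index was included. The xyloglucan enzymes EXGT-A3 (1.04) and XTH32 (0.87) were higher and XTH18 (-0.91) was lower, with XTH18 at 0.76, 0.75 and 0.71 in tbf1 and 1.56, 1.87 and 1.51 in the wild type. Of 21 beta-glucosidases 5 were called higher and 4 lower, from BGLU44 and BGLU40 (0.88) to BGLU46 (-0.89). BGLU46 had 0.09, 0.11 and 0.09 in tbf1 and 1.88, 0.59 and 0.48 in the wild type, and without wild-type array 1 its difference was -0.44. The class III peroxidase PRXR1 had -1.17, -1.22 and -1.30 in tbf1 and -2.25, -2.60 and -2.58 in the wild type (1.24), the opposite sign from water infiltration (-0.62).

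Larger families fixed by name held a mixture, to be read against the 16.9% of all genes called higher and the 16.7% called lower. Of 24 cytochrome P450 genes, oxygenases of secondary metabolism, 0 were called higher and 5 lower (median -0.08), and of 43 UDP-glycosyltransferases, which attach sugars to hormones and metabolites, 3 were called higher and 7 lower (median -0.13). Of 40 agamous-like MADS-box factors, best known from flowers and seeds, 1 was called higher and 10 lower (median -0.17), and of 15 IQ-domain calmodulin-binding proteins 1 was called higher and 6 lower (median -0.26). Secreted RALF-like peptides, some of which signal through receptor kinases, had 2 of 11 higher and 3 lower, serine carboxypeptidase-like enzymes 5 of 29 higher and 5 lower, and ubiquitin-conjugating enzymes 4 of 12 higher and 2 lower. These family counts were not stable across fits: the agamous-like factors had 0 higher and 1 lower once the index was in the fit and 0 of either after quantile normalization, the IQ-domain genes 0 and 3 in the fit that included the index, and the UDP-glycosyltransferases 2 and 2. In that fit the P450 genes had 0 higher and 2 lower, and the ubiquitin-conjugating enzymes 0 of either. The serine carboxypeptidase-like enzymes had 1 higher and 2 lower there, and 1 higher and 7 lower after quantile normalization.

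Markers of other leaf and plant cell types were few. Of 4 guard cell lineage markers 1 was called, SPCH (-0.40), the trichome gene TRY differed by -0.46 (adjusted p = 0.0191), and the root hair expansin EXPA7 by -0.35 (adjusted p = 0.0534). Without wild-type array 1 the TRY value was -0.28 and no longer called, and without wild-type array 3 the EXPA7 value was -0.45 and called. No named probe set existed for the vascular and the flower and seed markers. These values give little hold on the cell makeup of the leaves.

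**Figure D3:**
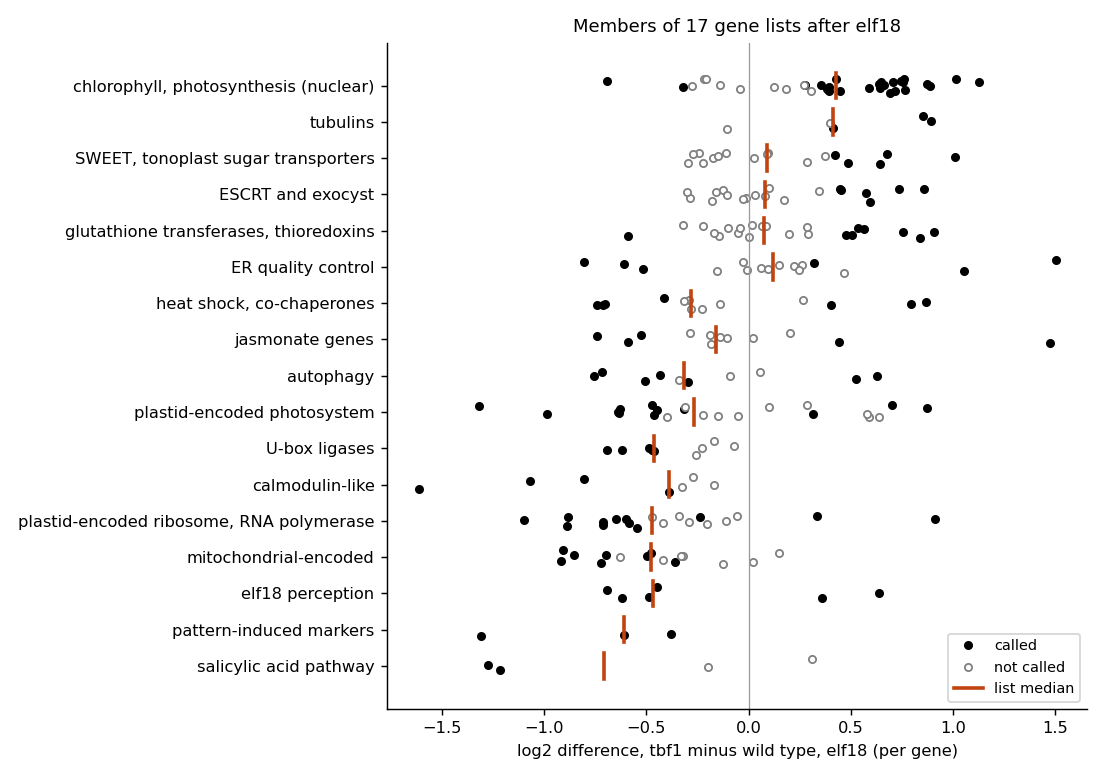
Log2 difference of each member (x axis, tbf1 minus wild type after elf18) of 17 gene lists (y axis), 1 point per gene, filled where called and open where not, with the list median as a bar. Photosynthesis genes lie mostly right of 0, with a median of 0.43, and the calmodulin-like, U-box, pattern-induced and mitochondrial-encoded genes mostly left of it.

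Many of these differences were already there in leaves infiltrated with water, whose arrays are separate. After water infiltration 4679 probe sets (20.6%) were called, 2734 higher (12.0%) and 1945 lower (8.55%). Of the 4721 probe sets higher after elf18, 1710 were also higher after water infiltration (36.2% of them and 62.5% of those higher after water), and 227 were lower. Of the 3662 lower after elf18, 897 were also lower after water infiltration (24.5% and 46.1%), and 83 were higher. Among differences of at least 2-fold after elf18 the shared part was larger, at 305 of 554 higher (55.1%) and 215 of 376 lower (57.2%). After water infiltration these needed only a call in the same direction, with no 2-fold minimum. Over all probe sets the 2 differences correlated at r = 0.50, a description only, since probe sets share arrays and the centring spans all 24.

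The difference between treatments was tested directly, and 3524 probe sets (15.5%) were called, 2234 with a more positive difference after elf18 (9.82%) and 1290 with a more negative one (5.67%). Among the genes with a symbol named for this difference, PDF1.2 changed most. After elf18 PDF1.2 stood at 2.04 in tbf1 and 2.57 in the wild type, and after water infiltration at -2.51 in tbf1 and 0.46 in the wild type (means, n = 3 each). tbf1 leaves were thus 2.96 below the wild type after water and 0.53 below it after elf18, a difference between treatments of 2.44 ± 0.19 (SE; adjusted p = 7.91e-09). PDF1.2b changed by 1.73 ± 0.13. ORA47, a jasmonate-responsive factor picked after its values were seen, differed by -1.46 after water infiltration and by -0.19 after elf18 (4.98e-05 as the adjusted p of the change). The ORA47 value after elf18 ran from -0.05 without wild-type array 3 to -0.40, and called, without wild-type array 2.

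BGLU44 turned its sign between treatments, at 1.69 after elf18 and -0.69 after water infiltration (2.37 ± 0.18, adjusted p = 7.91e-09). After water infiltration its values were 0.46, 0.41 and 0.49 in tbf1 and 1.17, 0.96 and 1.302 in the wild type. EXLA1, an expansin-like protein, had 0.16, -0.03 and 0.13 in tbf1 and -0.79, -0.88 and -0.79 in the wild type after elf18 and 1.34, 1.31 and 1.59 in tbf1 and 2.77, 2.58 and 2.75 in the wild type after water infiltration (2.19 ± 0.17). DRT100, a leucine-rich repeat protein named for tolerance of DNA damage, changed by 2.05 ± 0.22. AT1G29660 and AT1G73600 changed by 2.60 ± 0.40 and 2.51 ± 0.21, with both higher in tbf1 after elf18 and lower after water. The wild-type values of AT1G29660 after elf18 spread widely, at -1.43, -3.37 and -3.28, against -1.22, -1.21 and -1.25 in tbf1. The difference after elf18 itself was not called when the index was included in AT1G29660 (0.65, adjusted p = 0.334) or in DRT100 (0.55, adjusted p = 0.153), and after quantile normalization that of DRT100 was 0.011 (adjusted p = 0.976).

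The most negative changes were in AT5G10830 (-2.20 ± 0.22), AT5G17910 (-2.10 ± 0.25), AT3G25130 (-1.88 ± 0.18), AT5G65240 (-1.82 ± 0.26), AT2G29500 (-1.81 ± 0.23) and AT2G18220 (-1.81 ± 0.20). AT5G10830 was lower in tbf1 after elf18, at 1.27, 0.88 and 1.49 in tbf1 and 2.58, 2.11 and 2.30 in the wild type, and higher after water infiltration, at 1.51, 1.49 and 1.32 in tbf1 and 0.38, 0.07 and 0.63 in the wild type. AT3G25130 had 0.97, 1.4001 and 1.06 in tbf1 and 2.55, 2.61 and 2.58 in the wild type after elf18 and 0.33, 0.51 and 0.44 in tbf1 and -0.0031, -0.06 and 0.0031 in the wild type after water. Of the 4 infiltrated groups, wild-type leaves after elf18 were highest in both genes, as they were in MMP, NET1D and 3xHMG-box1.

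**Figure D4:**
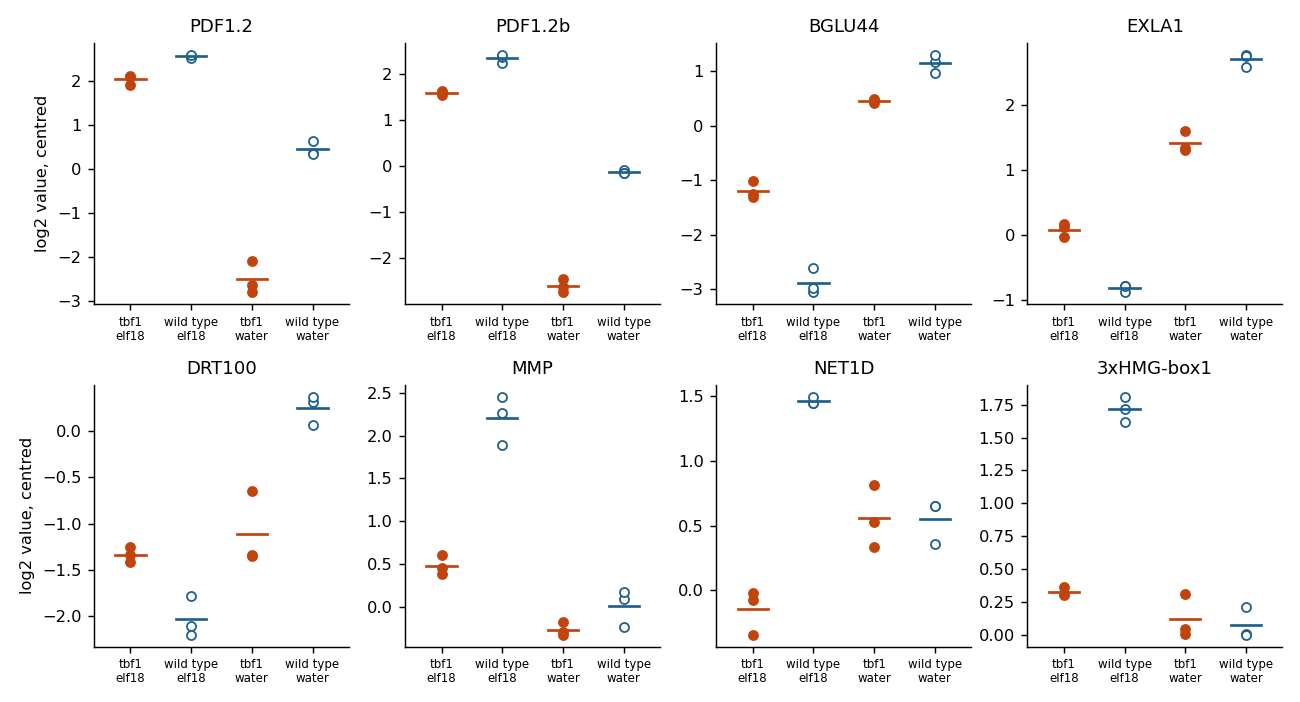
Centred log2 values (y axis) of 8 genes in the 4 infiltrated groups (x axis), 1 point per array with the group mean as a bar, tbf1 filled and the wild type open. PDF1.2 and PDF1.2b are lowest in tbf1 after water, BGLU44, EXLA1 and DRT100 change the order of the genotypes between treatments, and MMP, NET1D and 3xHMG-box1 are highest in the wild type after elf18.

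The sprayed leaves gave a different picture of the same 2 genotypes, with 68.8% of probe sets called after water spray (39.9% higher, 28.8% lower). Across probe sets the difference after elf18 correlated with that after SA spray at r = -0.32 and with that after water spray at r = -0.56. Of the 4721 probe sets higher in tbf1 after elf18, 3377 (71.5%) were lower in tbf1 after water spray, as were 498 of the 554 (89.9%) that were at least 2-fold higher. The 5′ minus 3′ index had the same change of sign between infiltrated and sprayed leaves. PORB, for one, was higher by 1.13 after elf18 and lower by a log2 difference of -1.95 after water spray.

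Only 83 probe sets were higher in tbf1 under all 4 treatments (0.365%) and 85 were lower (0.374%). In the fit that included the index 0 were called in 1 direction under all 4. The index gap between genotypes was wide beside its spread within groups, most of all in the sprays. That count therefore rests on extrapolated differences, and its cause was not tested. QQS was the clearest rise, at 1.63 after elf18, 1.33 after water infiltration, 3.38 after SA and 3.09 after water spray. AT3G43270 was higher by 1.49, 1.82, 0.79 and 0.76 in the same order, and AT4G39840, AT5G52450, AT5G48430 and AT1G32860 made up the rest of the 6 largest. The chitinase gene CHI (AT2G43570), whose product cuts fungal cell wall chitin, had -1.67, -1.96 and -2.01 in tbf1 and -0.81, -1.16 and -0.96 in the wild type after elf18 (-0.90) and differed by -2.34, -2.69 and -2.20 under the other treatments. AT5G55450 was lower by log2 differences of -1.04, -2.33, -1.83 and -1.73, and AT5G48570 (FKBP65), AT1G55210, AT1G55960 and AT4G08310 were the other lower genes. ChiC, a second chitinase, was instead higher in tbf1 after elf18 (0.63).

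**Figure D5:**
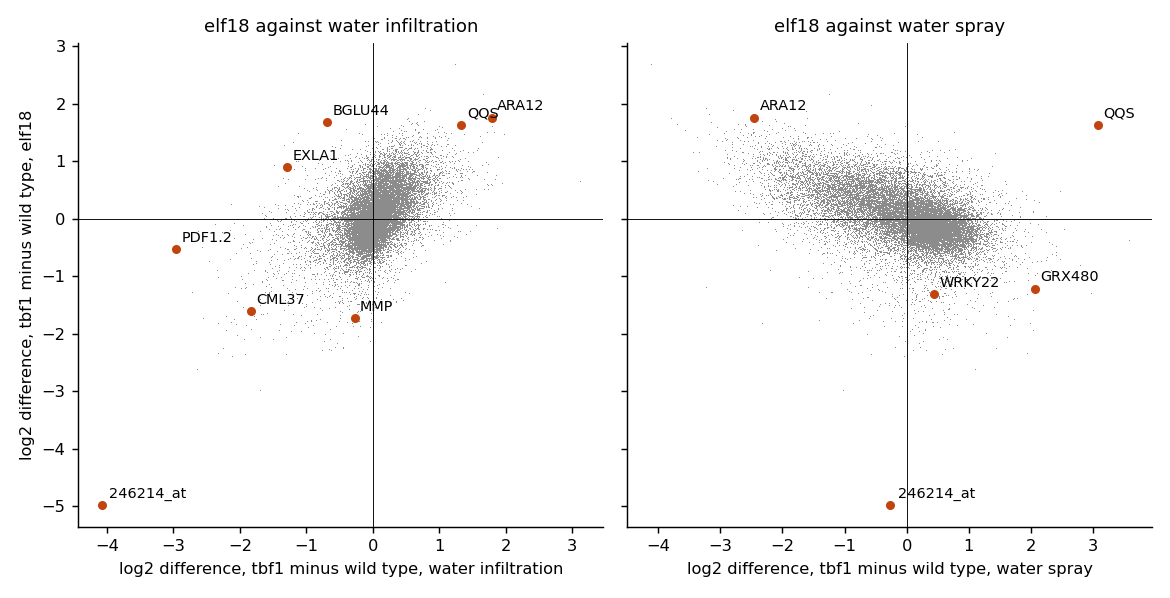
Log2 difference between genotypes after elf18 (y axis, tbf1 minus wild type) against that after water infiltration (left) and after water spray (right) for 22746 probe sets, 1 dot each, with named examples enlarged. The cloud rises to the right against water infiltration (r = 0.50) and falls against water spray (r = -0.56), and QQS lies at the upper right in both.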

How the data were processed

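Total RNA of 24 mature leaf samples was measured on Affymetrix ATH1 arrays, 3 a group. The authors deposited log2 values made with RMA, per the submitters' processing notes; their version and the array software are not given in the sources used here. In the deposited table every probe set has a median of 0 over the 24 arrays, so the values had been centred, and log base 2 was assumed from RMA and from the largest absolute value, 5.30. Of 22810 probe sets, 64 array controls were left out; of the 22746 tested, 13513 have 1 gene name in the platform annotation, 503 several and 8730 none. One mean per group was fitted to all 24 arrays with limma 3.58.1 in R 4.3.3 (lmFit, contrasts.fit, eBayes; 16 residual degrees of freedom), with Benjamini-Hochberg adjustment. Gene lists used a fit of 13355 genes, each the mean of its plain probe sets (those ending s_at or x_at only where a gene had no other). The index was the mean of 6 control pairs, 5′ minus 3′.

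Named genes were the 14 largest rises and falls among called probe sets with 1 gene name and no overlap, the 6 most positive and most negative differences between treatments, the 6 highest and lowest under all 4 treatments, the largest called members of each list, and EFR and BZIP60. The 24 largest rises and falls with a symbol also had to be called and without overlap. These genes, the unnamed probe sets and some list members were named after their values were seen. The comparison, the 37 lists and the 31 lists added from names in the annotation were chosen with earlier results of these data known. Of 442 list entries fixed at the design, 65 had a probe set under their symbol, so the lists cover only part of the intended genes. Whether replicate numbers pair the arrays is not known, and the fit used no pairing. After elf18, deviations of same-numbered arrays from their group means correlated at 0.10, -0.0045 and 0.08. Those of differently numbered arrays correlated at -0.10 to 0.04. With 3 arrays a group these values cannot show whether the arrays were paired. The fit was tested on simulated data. The number of arrays, 3 a group, limits the precision, and p-values measure only the spread between these samples. Alternatives were other array scalings, array weights per group, the index as a covariate, the replicate block, own arrays only, other probe set classes, a 2-fold minimum and leaving out each array.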

Additional observations from a re-analysis of the deposited data

Results flagged for a closer look

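The genotype difference after elf18 differed from that after water infiltration, by limma's test of that difference, at 3524 probe sets. Among the genes named for it, 6 had a more positive difference after elf18: AT1G29660 by 2.60, AT1G73600 by 2.51, PDF1.2 by 2.44, BGLU44 by 2.37, EXLA1 by 2.19 and DRT100 by 2.05 on the log2 scale. In PDF1.2 tbf1 was the lower genotype after both treatments, and in the other 5 it was higher after elf18 and lower after water.

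Another 6 had a more negative difference after elf18: AT5G10830 by -2.20, AT5G17910 by -2.10, AT3G25130 by -1.88, AT5G65240 by -1.82, AT2G29500 by -1.81 and AT2G18220 by -1.81. All 6 were lower in tbf1 after elf18. With the index as a covariate all 12 changes kept their direction and call, and the genotype difference after elf18 itself kept its call and direction in 3 of the first 6 genes and in all 6 of the second.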

How the results depend on the processing

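The 8383 probe sets called after elf18 became 4197 with the index as a covariate and 930 with a 2-fold minimum. They numbered 6386 after quantile normalization, 6624 with the elf18 arrays alone and 7385 with array weights per group. Median-centred arrays gave 8126 (5040 higher, 3086 lower), the replicate block 8592, and leaving out 1 array between 6729 and 7854. After water infiltration the 4679 calls became 7248 with array weights per group, 2715 with the index (1297 higher, 1418 lower, against 2734 and 1945) and 598 at 2-fold (240 higher, 358 lower), 4806 with the block, and 3482 to 4006 without 1 array. The 3524 calls of the difference between treatments became 750 at 2-fold, 3710 with the block and 2824 to 3584 without 1 array. The 168 probe sets called one way under all 4 treatments became 379 after quantile normalization, 0 with the index, 7 at 2-fold, 175 with the block and 135 to 200 without 1 array. The index difference of 0.64 lay between 0.573 and 0.729 without 1 array and between 0.405 and 0.784 without 1 control gene. Signs turned with the index in BIK1 (-0.023), UGT76B1 (-1.38), UGT74F1 (0.060) and ATG3 (-0.041), after quantile normalization in TMT1 (-0.013), and in UGT74F1 without wild-type replicate 3 (its range without 1 array was -0.31 to 0.022); the cause was not tested. Of the named genes' values, the index ended 45 calls and turned 4 signs, with 136 unchanged in call and direction; quantile normalization ended 29. Leaving out 1 array also ended calls of AT5G48430, SPCH, HEMA3, psbH, UBC32, WRKY20 and HSA32. The replicate block ended none. The planned promoter search was not run. Bulk leaf RNA and centred values give no absolute levels.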
